A study of Mus musculus with 49 samples.

Results

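The genes described here are 49 mouse genes of Wnt signalling, out of 52550 genes counted, of which 21950 were protein-coding. They were taken by symbol and not filtered by their values, though the list was chosen with earlier results of these data known. The list holds protein-coding genes of the numbered Wnt, Fzd, Sfrp, Dkk and Rspo families, and Frzb, Wif1, Lrp5, Lrp6, Axin2, Lef1, Daam2, Znrf3 and Rnf43. They comprised 18 Wnt ligands, 4 R-spondins, 10 Frizzled receptors, 2 LRP co-receptors, 6 secreted proteins that bind Wnt ligands, 4 Dickkopf proteins, 2 ubiquitin ligases and 3 genes whose products act inside the cell.

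Wnt ligands are secreted lipid-modified proteins that signal through a Frizzled receptor together with the co-receptor LRP5 or LRP6, which stabilizes beta-catenin and lets it act with TCF/LEF factors on DNA. Secreted Frizzled-related proteins, WIF1 and several Dickkopf proteins limit the signal outside the cell. ZNRF3 and RNF43 remove Frizzled receptors from the cell surface, and R-spondins block that removal. In the developing neural tube Wnt genes are known for dorsal patterning and for the growth of progenitors.

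RNA was sequenced from ES-D3 cells, an established mouse embryonic stem cell line, during the neural embryonic stem cell test, a culture assay used to look for developmental neurotoxicity. The drug cultures formed embryoid bodies for 3 days and then received an antidepressant until harvest. There were 49 libraries in 7 groups of 7: 2 µM fluoxetine on days 7 and 13, 90 µM venlafaxine on days 7 and 13, and controls on days 0, 7 and 13. The labels name no solvent or batch, give 8 samples per condition, and do not say whether samples came from separate differentiations, so p-values measure only the spread between these samples, which may be technical.

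Libraries held 14059811 to 29225775 counts. Levels are CPM, a gene's share of a library's counts scaled by TMM factors, and a gene counts as changed, or called, where edgeR's quasi-likelihood test gave p under 0.05 after Benjamini-Hochberg adjustment across all genes tested. The control cultures carried the markers of their stage: 6 pluripotency markers summed to 4710 to 4930 CPM on day 0, 81.5 to 98.2 CPM on day 7 and 93.0 to 190 CPM on day 13, and 7 neuronal markers to 269 to 281, 761 to 1080 and 4030 to 5330 CPM. Markers of mesenchyme, 7 genes, summed to 217 to 1080 CPM in controls of day 13. In fluoxetine cultures of day 13 that sum was 1495, 935 and 869 CPM in libraries 5, 6 and 7, against 434 to 617 CPM in the other 4 libraries. In bulk RNA, fewer cells of a type and less RNA per cell cannot be told apart.

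Promoter sequences are shown for Fzd5 and Sfrp2, which were called with venlafaxine on day 7, and for Wnt11, called on day 13, as the 250 bases before the RefSeq start site (GRCm38.p6), written 5' to 3' along the gene. Capitals mark the TCF/LEF core CTTTGAT, searched on both strands, which reads ATCAAAG in the strand printed for Wnt11.
Fzd5 (chr1:64737751-64738000, minus strand): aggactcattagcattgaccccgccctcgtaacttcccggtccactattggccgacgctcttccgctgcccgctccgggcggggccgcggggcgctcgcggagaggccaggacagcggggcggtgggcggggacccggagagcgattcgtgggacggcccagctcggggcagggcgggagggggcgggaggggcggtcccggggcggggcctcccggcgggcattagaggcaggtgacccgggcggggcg
Sfrp2 (chr3:83766071-83766320, plus strand): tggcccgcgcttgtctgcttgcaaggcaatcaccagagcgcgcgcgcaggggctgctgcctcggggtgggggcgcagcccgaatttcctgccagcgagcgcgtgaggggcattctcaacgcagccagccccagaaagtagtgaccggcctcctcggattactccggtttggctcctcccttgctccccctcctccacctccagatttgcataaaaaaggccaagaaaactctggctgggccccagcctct
Wnt11 (chr7:98834862-98835111, plus strand): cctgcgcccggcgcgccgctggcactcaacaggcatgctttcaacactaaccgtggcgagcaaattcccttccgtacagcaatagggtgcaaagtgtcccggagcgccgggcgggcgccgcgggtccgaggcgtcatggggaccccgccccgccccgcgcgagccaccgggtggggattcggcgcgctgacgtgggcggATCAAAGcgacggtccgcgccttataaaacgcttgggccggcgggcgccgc
RefSeq promoters were matched for 32 of the 49 genes, 40 promoters in all. CTTTGAT lay in 2 of the 40, at position -51 from the start of the Wnt11 promoter printed and in 1 promoter of Wnt5b, which is 5.0% against 3.21% of all 32851 mouse promoters. The variant CTTTGTT also lay in 2 of the 40, those of Dkk1 and Fzd7, against 5.03% of all promoters. Neither string was found in the windows of Fzd5, Sfrp2, Frzb, Daam2, Axin2 or Lef1. The median GC content was 65.8% in the promoters of these genes and 52.4% in all promoters.

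Of the 49 genes, 40 reached a mean of 1 CPM in at least 1 group and 28 did so in every group. The 9 below 1 CPM throughout were Wnt2, Wnt2b, Wnt8b, Wnt9b, Wnt10a, Wnt10b, Wnt16, Rspo4 and Dkk4. At least 1 CPM was reached by 30 genes on day 0, by 37 genes in each group of day 7, and on day 13 by 37 with fluoxetine, 38 with venlafaxine and 38 in controls.

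**Figure D1:**
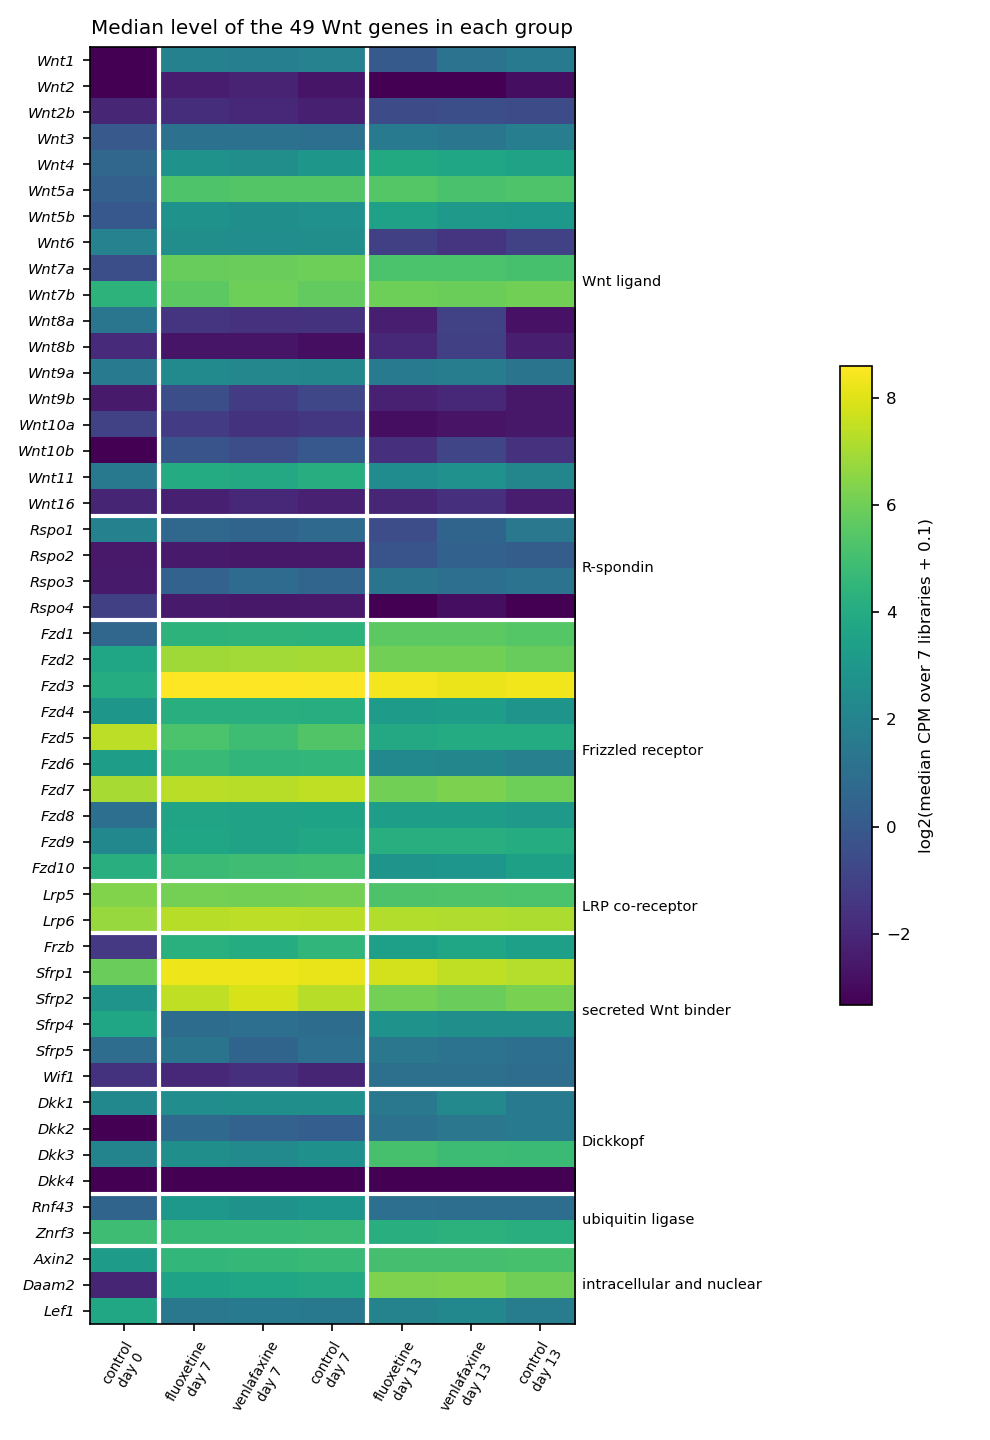
Median CPM of the 49 genes (down the page, by role) in the 7 groups (across), on a colour scale of log2(CPM + 0.1). The groups of a day look alike, and day 0 stands apart with low Wnt5a, Wnt7a, Frzb and Daam2 and high Fzd5.

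Per kilobase of exon, secreted inhibitors and Frizzled receptors were the most abundant of these transcripts. On day 0 the receptor genes Fzd7 and Fzd5 had mean levels of 29.0 and 24.8 CPM per kb, and the secreted inhibitor gene Sfrp1 had 13.4 CPM per kb. On day 7 controls had 72.7 CPM per kb of Sfrp2 and 70.3 of Sfrp1, followed by Fzd7 with 37.6, Fzd2 with 34.3 and Fzd3 with 28.7. On day 13 Sfrp1 with 35.1 CPM per kb and Sfrp2 with 32.8 were still highest, and their order turns with the length used, since Sfrp2 had 35.2 per kb of its longest transcript. Among the ligands Wnt7b led on day 0 with 4.29 CPM per kb, Wnt7a on day 7 with 19.3 and Wnt7b on day 13 with 13.5. The co-receptor Lrp6 led Lrp5 on day 7 with 12.2 against 7.08 CPM per kb. R-spondin transcripts were scarcer, with at most 1.85 CPM per kb of Rspo1 on day 0, and Dickkopf transcripts were led on day 13 by Dkk3 with 8.33 CPM per kb.

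Most of these genes changed as control cultures differentiated, and so did most genes of the table. A filter on low counts left 40 of the 49 for testing. Day 7 against day 0 gave 36 of 40 called, 30 higher and 6 lower, which is 90% beside 88.8% of all genes tested (45.3% higher and 43.4% lower). The median log2 fold change of the 40 was 1.26, against 0.03 over all genes. Day 13 against day 7 gave 35 of 40 called, 15 higher and 20 lower, which is 87.5% beside 83% of all genes (42.1% higher and 40.9% lower), with a median of -0.33 against 0.01 over all genes. Day 13 against day 0 gave 36 of 40, 25 higher and 11 lower, which is 90% beside 93.4% (48.3% higher and 45.1% lower). The shares called are near those of all genes in each of the 3 comparisons.

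**Figure D2:**
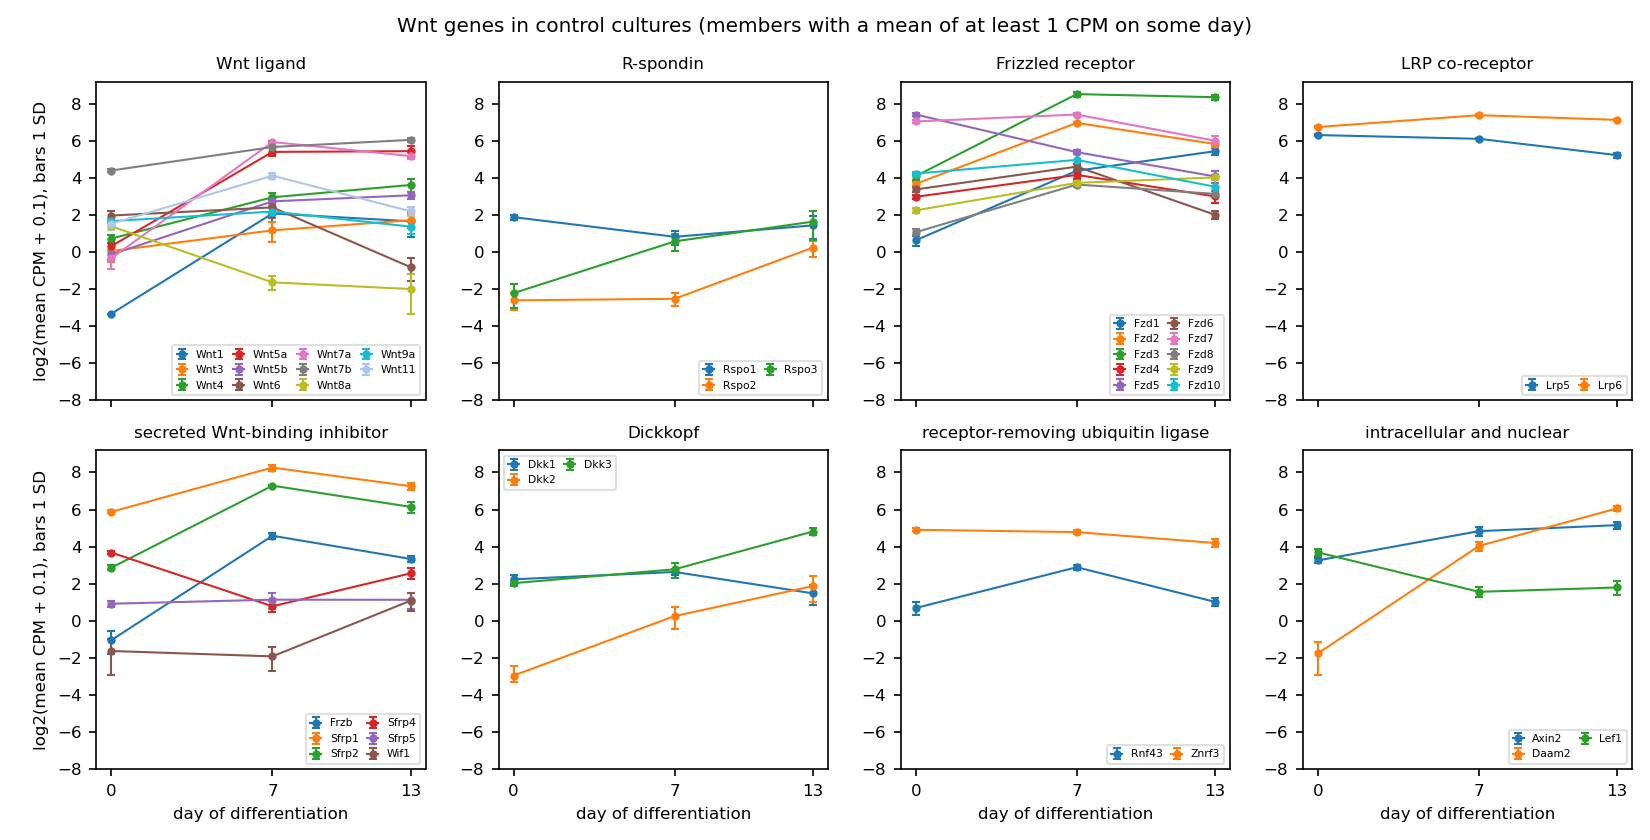
Mean level of each gene in control cultures on days 0, 7 and 13 as log2(mean CPM + 0.1), 1 panel per role, bars 1 SD, n = 7 libraries a day, for genes with a mean of at least 1 CPM on some day. Most lines climb to day 7 and then part, with Daam2 higher again on day 13 and Fzd5 lower on each later day.

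Among the ligands, 10 of 11 tested were higher on day 7 than on day 0 and 1 was lower. Wnt1, a ligand of the midbrain and the dorsal midline, had no count in any of the 7 libraries of day 0. It had 2.69, 3.8 and 5.37 CPM (lowest, median and highest library) on day 7. That is at least 158-fold above day 0, with 3 counts summed over the day 0 group, 0.0271 CPM, taken as the upper limit there. Wnt7a, a ligand of the ventricular zone of the nervous system, had 0.479, 0.622 and 1.26 CPM on day 0, 57.8, 61.5 and 64.3 CPM on day 7 and 31.4, 35.1 and 41.2 CPM on day 13. The groups of the 3 days did not overlap, and the log2 fold change of day 7 against day 0 was 6.45 ± 0.1095 (SE, adjusted p = 3.22e-25). Wnt5a, known for signalling without beta-catenin, had 0.921, 1.14 and 1.37 CPM on day 0, 34.9, 42.2 and 53.8 CPM on day 7 and 31.7, 39.6 and 55.5 CPM on day 13 (5.17 ± 0.185 for day 7 against day 0, adjusted p = 1.89e-17). Its levels on days 7 and 13 overlapped. Its relative Wnt5b had 7.07, 8.11 and 10.1 CPM on day 13, against 0.553, 0.88 and 1.03 CPM on day 0 (3.35 ± 0.127, adjusted p = 1.54e-18).

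Wnt8a, known from the early embryo, was the ligand that fell. It had 0.123, 0.239 and 0.345 CPM on day 7, against 1.93, 2.48 and 2.96 CPM on day 0, with no overlap (-3.45 ± 0.325, adjusted p = 3.31e-10). On day 13, 4 of the 11 ligands were higher than on day 7 and 4 were lower. Wnt6 fell to 0.264, 0.412 and 0.847 CPM on day 13, against 2.19, 5.72 and 7.37 CPM on day 7 (-3.42 ± 0.269, adjusted p = 2.17e-11). Wnt11, known from cell movements in the gastrula and from kidney and heart, had 3.64, 4.37 and 5.62 CPM on day 13, against 14.6, 16.9 and 20.4 CPM on day 7 (-1.92 ± 0.114, adjusted p = 4.7e-14). The groups did not overlap for either gene. Wnt6 lies 6193 bases from Wnt10a (chr1:74771892-74804179 for the pair, GRCm38), which had 0, 0.0678 and 0.0982 CPM on day 13, against 0.23, 0.287 and 0.389 CPM on day 7. The count filter removed Wnt10a, so it has no test here, and it was called lower without that filter and by DESeq2. Wnt1 and Wnt10b are neighbours as well, 11706 bases apart on chromosome 15, and Wnt10b had medians of 0, 0.863 and 0.222 CPM on days 0, 7 and 13.

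R-spondin genes were low throughout. Rspo3 rose to 0.803, 1.38 and 1.95 CPM on day 7, against 0.0486, 0.08 and 0.307 CPM on day 0 (3.64 ± 0.493, adjusted p = 2.68e-07). Rspo2 rose to 0.487, 1.03 and 1.58 CPM on day 13, against 0, 0.0768 and 0.123 CPM on day 7 (3.73 ± 0.339, adjusted p = 2.23e-10). All 3 R-spondins tested were higher on day 13 than on day 7, and neither named gene's groups overlapped.

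Of the 10 Frizzled receptors, 9 were higher on day 7 than on day 0, and Fzd5 was the 1 that was lower. Fzd3, a receptor known from axon tracts and planar polarity, had 14.3, 16.6 and 20.6 CPM on day 0, 323, 361 and 428 CPM on day 7 and 287, 319 and 371 CPM on day 13 (4.43 ± 0.0866 for day 7 against day 0, adjusted p = 7.16e-23). Fzd2 and Fzd1, close relatives of Fzd7, rose in the same interval by 3.30 ± 0.0396 and 3.83 ± 0.1 on the log2 scale (adjusted p = 7.14e-28 and 1.38e-21). Fzd5, a receptor known from eye development, had 156, 171 and 184 CPM on day 0, 37.6, 41.5 and 46.3 CPM on day 7 and 12.6, 15.9 and 23.3 CPM on day 13. Each day lay below the one before with no overlap, by -2.03 ± 0.0894 and then -1.29 ± 0.0971 (adjusted p = 7.61e-16 and 2.54e-11).

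Day 13 had 8 Frizzled receptors lower and 2 higher than day 7. Of the 8, Fzd3 (-0.16 ± 0.0698, adjusted p = 0.037) was not called with DESeq2, with its size factors in edgeR or without the least typical library of each group (5 on day 7, 4 on day 13 and 7 on day 0). Fzd6, which acts with Fzd3 in planar polarity, fell to 3.12, 3.59 and 4.68 CPM on day 13, against 20.6, 23.8 and 27.6 CPM on day 7 (-2.60 ± 0.0887, adjusted p = 7.31e-19). Fzd7, a receptor known from pluripotent cells, fell to 47.0, 61.6 and 84.5 CPM, against 160, 173 and 183 CPM (-1.40 ± 0.0869, adjusted p = 8.34e-13). Fzd10 fell by 1.44 ± 0.191 on the log2 scale (adjusted p = 4.79e-07), and its groups overlapped, with 7.25 to 18 CPM on day 13 and 16.7 to 41.3 CPM on day 7. The co-receptors moved less: Lrp6 had medians of 109, 166 and 140 CPM and Lrp5 of 80.5, 68.7 and 36.9 CPM on days 0, 7 and 13.

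Of the 6 secreted inhibitors, 3 were higher and 1 lower on day 7 than on day 0, and 2 were higher and 3 lower on day 13 than on day 7. Frzb, a secreted Frizzled-related protein, had 0.23, 0.291 and 0.76 CPM on day 0, 21.5, 22.8 and 27.9 CPM on day 7 and 7.83, 10.3 and 11.5 CPM on day 13. It rose by 5.96 ± 0.1505 to day 7 and fell by 1.24 ± 0.0907 to day 13 (adjusted p = 6.75e-22 and 3.23e-12), with no overlap between days. Sfrp2 had 6.15, 7.07 and 8.02 CPM on day 0, 146, 157 and 165 CPM on day 7 and 48, 72.6 and 91.3 CPM on day 13 (4.46 ± 0.114 for day 7 against day 0, adjusted p = 3.18e-20). Wif1 and Sfrp4 were the inhibitors that were higher on day 13 than on day 7. Wif1 had 1.46, 1.8 and 3.49 CPM on day 13, against 0.0615, 0.138 and 0.376 CPM on day 7 (3.49 ± 0.343, adjusted p = 9.64e-10), and Sfrp4 had 3.97, 5.93 and 7.12 CPM, against 0.965, 1.77 and 1.94 CPM (1.82 ± 0.134, adjusted p = 3.83e-12).

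Among the Dickkopf genes, Dkk2 had 3 counts in all on day 0 and 166 on day 7, a ratio of 41.9 with a counting interval of 14.1 to 205 (95%, exact binomial, counting error only). It had 1.51, 2.97 and 6.61 CPM on day 13, against 0.478, 1.08 and 1.8 CPM on day 7 (1.69 ± 0.287, adjusted p = 9.56e-06), with some overlap. Dkk3, a divergent member of the family, had 24.0, 27.3 and 34.0 CPM on day 13, against 5.3, 6.22 and 10.6 CPM on day 7 (2.06 ± 0.114, adjusted p = 1.59e-14). The ligase gene Rnf43 fell to 1.63, 1.85 and 2.36 CPM on day 13, against 6.41, 7.52 and 8.35 CPM on day 7 (-1.91 ± 0.118, adjusted p = 1.01e-13).

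Daam2, a formin-family gene known from Wnt signalling in the neural tube and in oligodendrocyte precursors, rose across both intervals. It had 0.057, 0.138 and 0.537 CPM on day 0, 14.3, 14.6 and 21.4 CPM on day 7 and 60.2, 64.5 and 72.6 CPM on day 13, with no overlap (6.39 ± 0.207 and 2.03 ± 0.0898, adjusted p = 3.59e-19 and 3.18e-16). Oligodendrocyte lineage markers, 6 genes, summed to 9.12 to 11.5, 38.0 to 53.4 and 223 to 623 CPM on the same days, and their part in the result was not tested. Axin2 and Lef1, named after their values were seen, are a feedback gene and a nuclear factor that Wnt signals are known to induce. Axin2 had medians of 9.21, 26.6 and 34.3 CPM and Lef1 of 13.7, 2.76 and 3.22 CPM on days 0, 7 and 13, so that on day 7 against day 0 Axin2 was higher and Lef1 lower (1.6 ± 0.105 and -2.14 ± 0.14, adjusted p = 5.87e-13 and 2.54e-13).

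A list of 73 other pathway genes, 72 of them in the table, was also tested. Day 7 against day 0 had 45 higher and 17 lower of 70 tested, 88.6% beside 88.8% of all genes, and day 13 against day 7 had 33 higher and 30 lower of 70, 90% beside 83%. Lgr5, an R-spondin receptor, averaged 9.71 CPM on day 7 and 0.175 CPM on day 0 (5.71 ± 0.171, adjusted p = 2.3e-20). Wls, which carries Wnt ligands to the cell surface, averaged 107 CPM on day 7 and 9.47 CPM on day 0 (3.5 ± 0.086, adjusted p = 2.96e-21). Apcdd1, an inhibitor at the membrane, averaged 138 CPM on day 13 and 12.6 CPM on day 7 (3.46 ± 0.0565, adjusted p = 6.52e-25).

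On day 7 Fzd5 and Frzb were lower and Sfrp2 was higher in venlafaxine cultures than in controls. These were 3 of 38 genes tested, 1 higher and 2 lower, which is 7.89% beside 3.84% of all genes (1.9% higher and 1.94% lower), and the median log2 fold change was -0.05 against 0.00 over all genes. Both drug groups of a day were set against the same 7 controls.

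Fzd5 had 25.0, 29.7 and 32.1 CPM in venlafaxine cultures, against 37.6, 41.5 and 46.3 CPM in controls (-0.51 ± 0.0575, adjusted p = 3.78e-06). Frzb had 14.6, 16.6 and 18.6 CPM in venlafaxine cultures, against 21.5, 22.8 and 27.9 CPM in controls (-0.52 ± 0.0795, adjusted p = 0.000293). Sfrp2 had 178, 231 and 270 CPM in venlafaxine cultures, against 146, 157 and 165 CPM in controls (0.52 ± 0.077, adjusted p = 0.000294). Fzd5 lies at chr1:64730558-64737751, Frzb at chr2:80411970-80447625, both on the minus strand, and Sfrp2 at chr3:83766321-83774316 on the plus strand (GRCm38). For each of the 3 genes every venlafaxine library lay on 1 side of every control library. The genes were picked by the test on these same libraries, so this is not separate support. No share of all genes without overlap is given here. Frzb and Sfrp2 encode related secreted inhibitors and moved in opposite directions. Daam2 was not called, with 12.3, 13.1 and 16 CPM in venlafaxine cultures and 14.3, 14.6 and 21.4 CPM in controls (-0.24 ± 0.0926, adjusted p = 0.163).

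Exons of antisense genes cover 17.8% of the exon bases of Fzd5 (Gm38058) and 16.1% of those of Sfrp2 (Gm26771). No source used here gives the strand setting of the counting, so reads of such pairs cannot be told apart, but Gm38058 was counted at no more than 0.119 CPM in venlafaxine cultures and 0.0955 CPM in controls of day 7, and Gm26771 at no more than 0.289 and 0.482 CPM.

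Of the 73 other pathway genes, 66 were tested on day 7, of which 1 was higher and 5 lower with venlafaxine, which is 9.09% beside 3.84% of all genes. Gpc4, a membrane proteoglycan, averaged 42.5 CPM in venlafaxine cultures and 33.7 CPM in controls (0.33 ± 0.0846, adjusted p = 0.0232), and its relative Gpc3 averaged 195 CPM and 250 CPM (-0.36 ± 0.0793, adjusted p = 0.0101). The co-receptor genes Ror2, Lgr5 and Ptk7 were lower by 0.35, 0.39 and 0.14 on the log2 scale (adjusted p = 0.0117, 0.0185 and 0.0436), and so was the homeobox target gene Cdx2, with 5.22 CPM in venlafaxine cultures and 6.8 CPM in controls (-0.38 ± 0.0944, adjusted p = 0.0185). Of 11 marker lists, 3 had called genes: 1 of 6 neural progenitor markers (Fabp7) was higher, 1 of 4 tested astrocyte markers lower and 2 of 6 cell cycle genes lower. Cell cycle genes summed to 2120 to 2570 CPM in venlafaxine cultures and 2290 to 2540 CPM in controls, neural progenitor markers to 1220 to 1420 and 1270 to 1470 CPM, astrocyte markers to 107 to 123 and 95.8 to 122 CPM with 1 of 6 at 0 in all venlafaxine libraries, and pluripotency markers to 79.6 to 196 and 81.5 to 98.2 CPM. Their part in the result was not tested.

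Fluoxetine on day 7 had 0 of 38 genes called, beside 0.0513% of all genes (0.032% higher and 0.0192% lower). At an unadjusted p under 0.05 edgeR took 6 of the 38, which is 15.8% beside 9.13% of all genes, and DESeq2 called 2 after adjustment, Frzb and Daam2, among 52 genes of the table where edgeR called 8. Frzb had 13.6, 18.9 and 20.9 CPM in fluoxetine cultures, against 21.5, 22.8 and 27.9 CPM in controls (-0.39 ± 0.0782, adjusted p = 0.0574, and 0.00266 to 0.183 over 7 alternative settings). Every fluoxetine library lay below every control library. Daam2 had 10.8, 12 and 14.5 CPM in fluoxetine cultures, against 14.3, 14.6 and 21.4 CPM in controls, with a small overlap (-0.38 ± 0.0925, adjusted p = 0.16, and 0.0345 to 0.37 over the alternatives). Fzd5 had 31.9, 36.9 and 39.9 CPM in fluoxetine cultures, against 37.6, 41.5 and 46.3 CPM in controls (-0.21 ± 0.0562, adjusted p = 0.209).

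Fluoxetine against venlafaxine on day 7, at doses that differ, gave 1 of 38 genes called, which is 2.63% beside 0.147% of all genes (0.103% higher and 0.0449% lower). It was Fzd5, with 31.9, 36.9 and 39.9 CPM in fluoxetine cultures, against 25.0, 29.7 and 32.1 CPM in venlafaxine cultures (0.31 ± 0.0579, adjusted p = 0.0194), where the lowest fluoxetine library lay just under the highest venlafaxine library. The call did not hold with all 49 libraries in 1 fit or with the 2 groups alone. Frzb and Daam2 had differences of 0.13 ± 0.0807 and -0.14 ± 0.0944 between the drugs (adjusted p = 0.723 and 0.759).

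**Figure D3:**
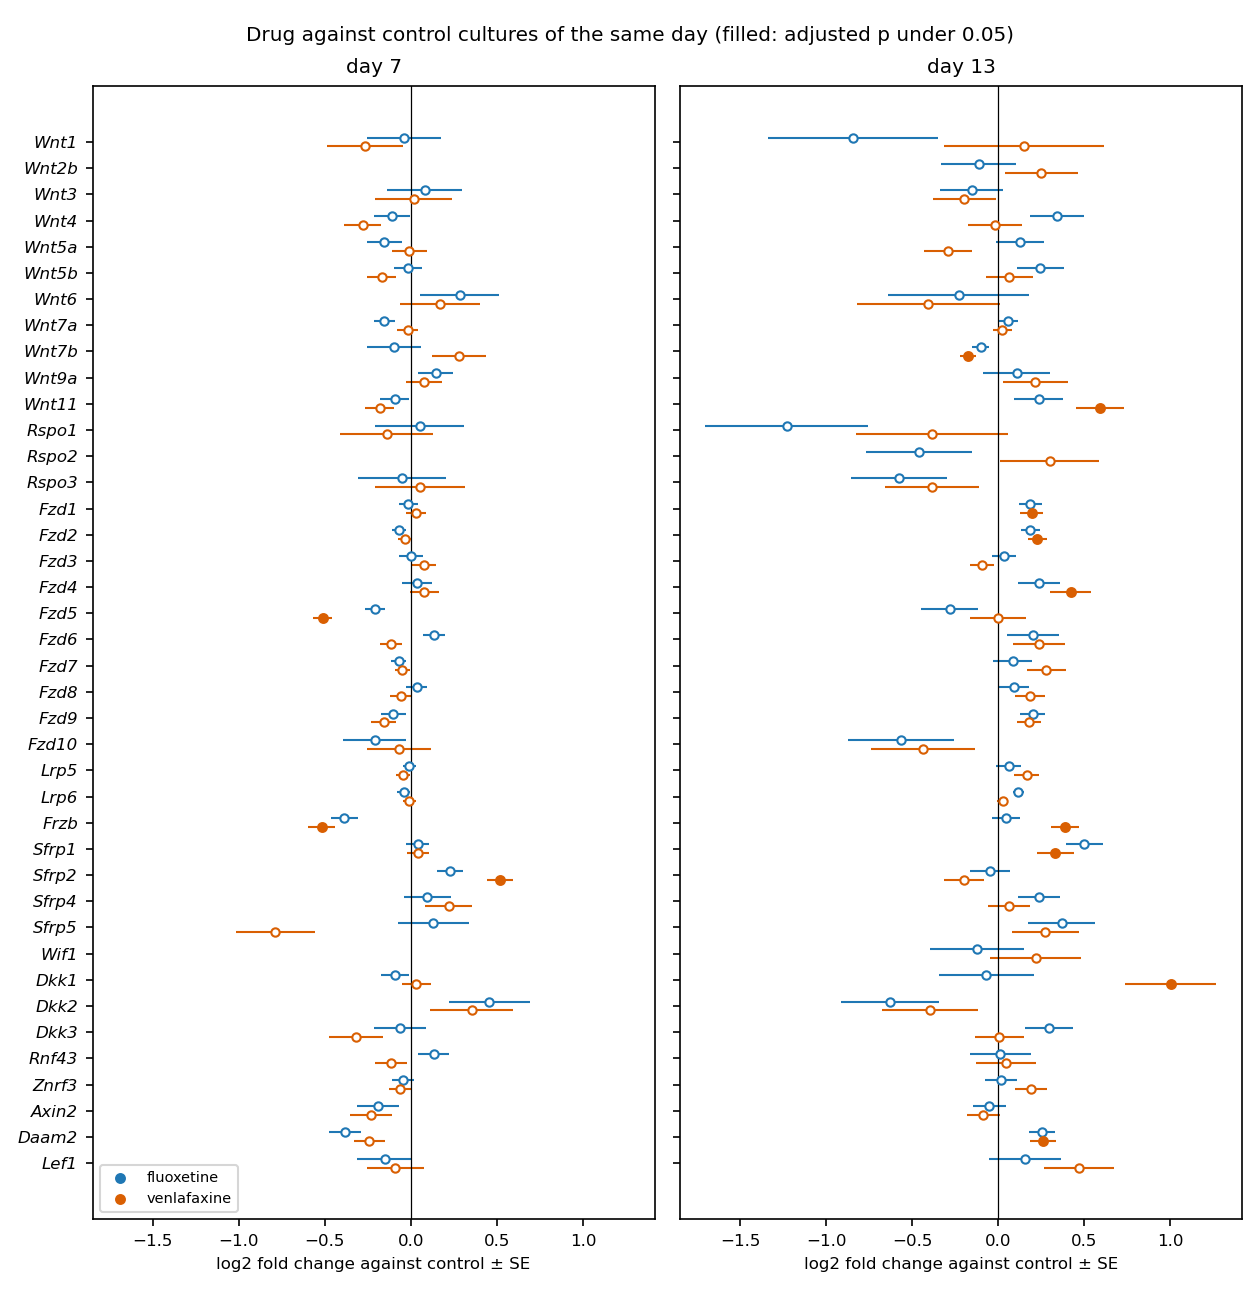
Log2 fold change (± SE) of the 40 genes tested on day 13, with fluoxetine (blue) and venlafaxine (orange) against controls of the same day. Day 7 is on the left and day 13 on the right, n = 7 libraries a group, with called genes filled. Genes tested on day 7 but not on day 13 are not drawn. Fzd5, Frzb and Sfrp2 are filled on day 7, and 9 genes on day 13, with venlafaxine in each case.

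On day 13 Dkk1, Wnt11, Fzd4, Frzb, Sfrp1, Daam2, Fzd2 and Fzd1 were higher and Wnt7b was lower in venlafaxine cultures than in controls. These were 9 of 40 genes tested, 22.5% beside 22.9% of all genes, so the share is near that of the table, with 8 higher and 1 lower where all genes had 11.6% higher and 11.3% lower. The median log2 fold change was 0.16, against -0.01 over all genes.

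Dkk1, a secreted antagonist that binds LRP5 and LRP6, had 3.64, 4.82 and 8.98 CPM in venlafaxine cultures, against 1.56, 3.0 and 4.19 CPM in controls (1.00 ± 0.265, adjusted p = 0.0168). Wnt11, whose promoter is printed above, had 5.53, 6.51 and 8.37 CPM in venlafaxine cultures, against 3.64, 4.37 and 5.62 CPM in controls (0.59 ± 0.139, adjusted p = 0.0115). All 7 venlafaxine libraries lay above the control median for both genes, and the ranges overlapped slightly. Wnt7b, a ligand of cortical neurons and progenitors, had 54.5, 59.8 and 62.2 CPM in venlafaxine cultures, against 62.3, 65.9 and 74.6 CPM in controls (-0.18 ± 0.0486, adjusted p = 0.0197), with no overlap. Exons of the antisense gene AU022754 cover 6.61% of the exon bases of Wnt7b. That gene had 1.52 to 2.88 CPM in venlafaxine cultures and 1.76 to 2.5 CPM in controls (0.01 ± 0.134, adjusted p = 0.956).

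Frzb had 11.3, 13.1 and 14.7 CPM in venlafaxine cultures, against 7.83, 10.3 and 11.5 CPM in controls (0.39 ± 0.0822, adjusted p = 0.00856), the opposite direction to day 7. Sfrp1 had 159, 174 and 253 CPM in venlafaxine cultures, against 122, 155 and 176 CPM in controls (0.33 ± 0.107, adjusted p = 0.0337). Daam2 had 63.9, 81.0 and 90.9 CPM in venlafaxine cultures, against 60.2, 64.5 and 72.6 CPM in controls (0.26 ± 0.0749, adjusted p = 0.023). Venlafaxine libraries overlapped control libraries for all 3 genes.

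Among the receptors, Fzd2 had 61.0, 65.7 and 78.0 CPM in venlafaxine cultures, against 51.8, 57.2 and 58.6 CPM in controls, with no overlap (0.23 ± 0.0561, adjusted p = 0.0137). Fzd4, known as a receptor of Norrin in vessels, averaged 10.6 CPM in venlafaxine cultures and 7.92 CPM in controls (0.42 ± 0.121, adjusted p = 0.0226), and Fzd1 averaged 49.4 CPM and 43.4 CPM (0.20 ± 0.0667, adjusted p = 0.0411). Fzd5 had 13.2, 15.8 and 22.8 CPM in venlafaxine cultures, against 12.6, 15.9 and 23.3 CPM in controls (-0.00 ± 0.164, adjusted p = 0.995). The calls of Fzd1 and Sfrp1 did not hold without the count filter, that of Fzd1 not with the 2 groups alone, and that of Wnt7b not with all 49 libraries in 1 fit. With the replicate number as a block, Fzd2 and Wnt11 were the only genes of the list still called, among 282 genes of the table in place of 3753.

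**Figure D4:**
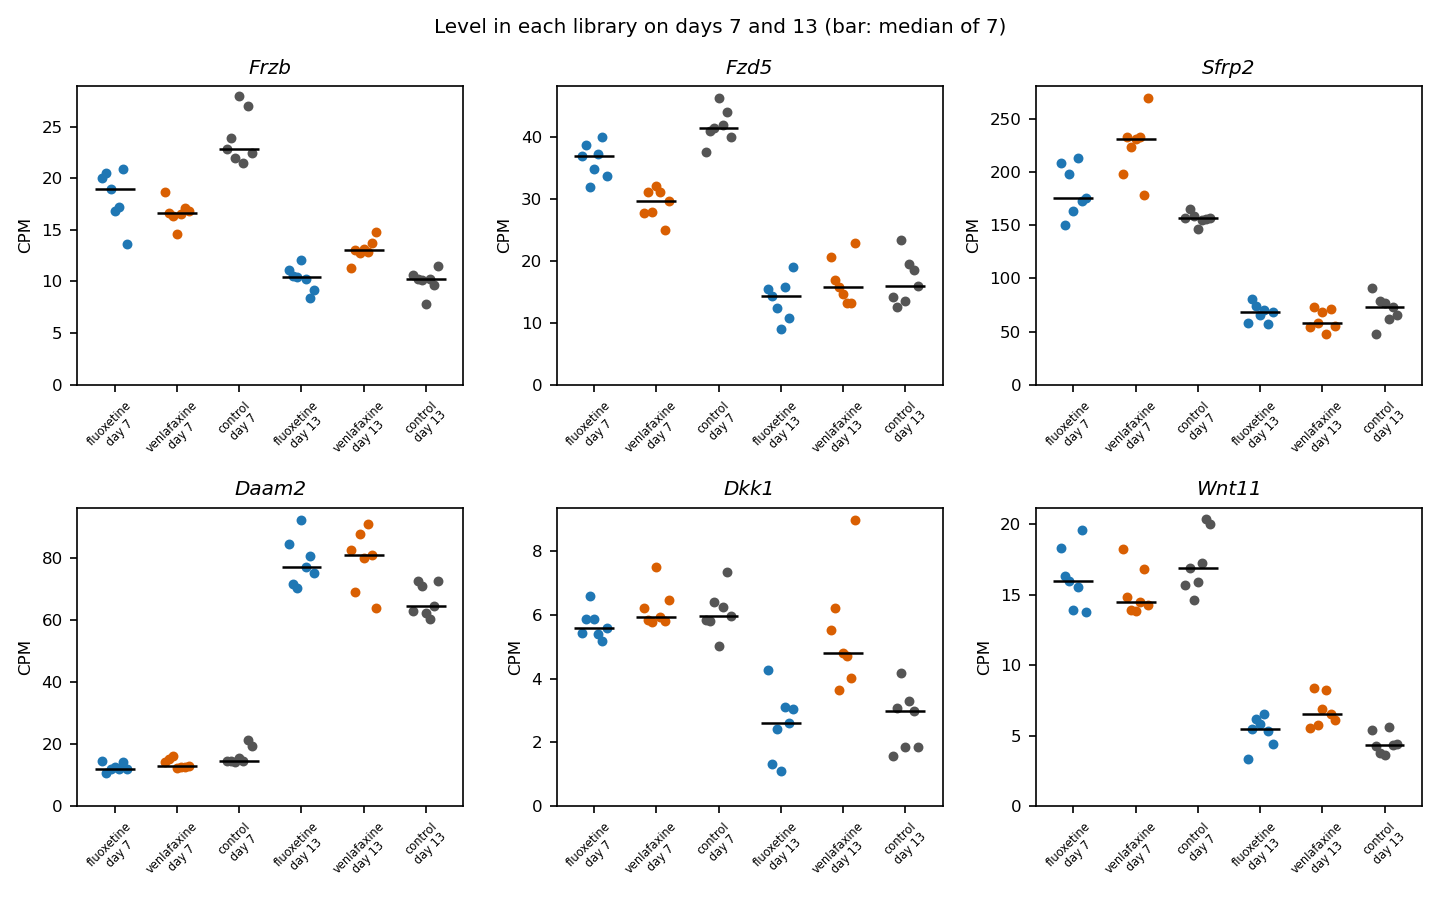
CPM of 6 genes in each library (points, 7 per group, bar at the median) of the drug and control groups on days 7 and 13. Venlafaxine points of Fzd5 and Frzb lie under and those of Sfrp2 over the control points on day 7, and Dkk1 and Wnt11 are high with venlafaxine on day 13.

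Of the other pathway genes, 67 were tested on day 13, of which 7 were higher and 9 lower with venlafaxine, which is 23.9% and near the 22.9% of all genes. Of 12 genes of the nuclear list 3 were called, all higher and all TCF factors. Tcf7l2 averaged 25.3 CPM in venlafaxine cultures and 18.9 CPM in controls (0.43 ± 0.085, adjusted p = 0.00584). Tcf7 averaged 10 and 6.47 CPM, and Tcf7l1 averaged 42.5 and 34.6 CPM (adjusted p = 0.0164 and 0.0438). Of 14 genes of the destruction complex and Dishevelled 4 were lower, among them Dvl1, with 107 CPM in venlafaxine cultures and 122 CPM in controls (-0.19 ± 0.0357, adjusted p = 0.00494). Of 6 tested target genes 2 were higher, Sp5 with 2.01 and 1.17 CPM and Ccnd1 with 62.7 and 49.1 CPM (adjusted p = 0.0461 and 0.0493). Axin2 and Lef1, also known to be induced by Wnt signals, were not called. Axin2 averaged 33.4 CPM in venlafaxine cultures and 35.6 CPM in controls. Lef1 averaged 4.69 and 3.37 CPM, and was called only with all 49 libraries in 1 fit.

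Some cell type markers were called in the same comparison, in which 22.9% of all genes were called (11.6% higher and 11.3% lower). A list with 1 called marker is therefore near the share of the table. With venlafaxine 6 of 7 neuronal markers were lower (summed 3140 to 4570 CPM, against 4030 to 5330 CPM in controls) and 5 of 6 cell cycle genes were higher (648 to 975 CPM, against 389 to 716 CPM). Oligodendrocyte lineage markers were higher in 4 of 6 (490 to 862 CPM, against 223 to 623 CPM), astrocyte markers in 4 of 6 with 1 lower (621 to 733 CPM, against 556 to 637 CPM), and endothelial markers in 2 of 3 tested (39.6 to 72.6 CPM, against 15.5 to 65.0 CPM). Neural progenitor markers had 2 of 6 higher and 1 lower (1190 to 1540 CPM, against 901 to 1380 CPM), endodermal markers 2 of 6 tested higher (88.4 to 120 CPM, against 79.8 to 107 CPM), pluripotency markers 1 of 6 higher (133 to 214 CPM, against 93 to 190 CPM) and roof plate markers 1 of 3 tested higher (46.6 to 68.5 CPM, against 49.3 to 68.2 CPM). No mesenchymal or floor plate marker was called, and no list had a marker at 0 in all libraries of either group. Their part in the result was not tested.

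Fluoxetine on day 13 had 0 of 40 genes called, beside 0.116% of all genes (0.061% higher and 0.0549% lower). At an unadjusted p under 0.05 edgeR took 12 of the 40, which is 30% beside 14.1% of all genes, and DESeq2 called 3 after adjustment, Sfrp1, Lrp6 and Daam2, among 421 genes of the table where edgeR called 19. Daam2 had 70.2, 76.9 and 92.1 CPM in fluoxetine cultures, against 60.2, 64.5 and 72.6 CPM in controls (0.25 ± 0.075, adjusted p = 0.115, and 0.0479 to 0.977 over 8 alternatives). Frzb had 8.35, 10.4 and 12.1 CPM in fluoxetine cultures, against 7.83, 10.3 and 11.5 CPM in controls (0.05 ± 0.083, adjusted p = 0.875). Fzd5 had 9.0, 14.3 and 19.0 CPM in fluoxetine cultures, against 12.6, 15.9 and 23.3 CPM in controls (-0.28 ± 0.166, adjusted p = 0.475). The groups overlapped for all 3 genes. Sfrp1, named because DESeq2 called it, had 169, 220 and 250 CPM in fluoxetine cultures and 122, 155 and 176 CPM in controls (0.50 ± 0.107, adjusted p = 0.0526 in edgeR).

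Fluoxetine against venlafaxine on day 13 gave 2 of 40 genes called, both lower, which is 5% beside 12.1% of all genes (5.14% higher and 6.97% lower). Dkk1 had 1.11, 2.6 and 4.27 CPM in fluoxetine cultures, against 3.64, 4.82 and 8.98 CPM in venlafaxine cultures (-1.07 ± 0.267, adjusted p = 0.0201). Frzb had 8.35, 10.4 and 12.1 CPM in fluoxetine cultures, against 11.3, 13.1 and 14.7 CPM in venlafaxine cultures (-0.34 ± 0.0824, adjusted p = 0.0183). The ranges of both genes overlapped. Neither gene was called without fluoxetine libraries 5, 6 and 7 or with the replicate number as a block. Without the least typical library of each group (fluoxetine 5, venlafaxine 1 and control 4) Frzb alone was called. Of the markers, 3 of 6 tested endodermal genes (61.6 to 95.5 CPM with fluoxetine, against 88.4 to 120 CPM with venlafaxine) and 2 of 3 tested endothelial genes (9.5 to 40.7 CPM, against 39.6 to 72.6 CPM) were lower with fluoxetine too. So was 1 marker each of the pluripotency, oligodendrocyte lineage, roof plate and cell cycle lists, while 1 neural progenitor marker was higher. Their part in the result was not tested. Daam2 and Fzd5 differed by -0.00 ± 0.0747 and -0.28 ± 0.166 between the drugs (adjusted p = 0.978 and 0.258).

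The change of a drug's effect between the days was tested directly, over 42 genes that passed the filter. The venlafaxine effect differed between day 13 and day 7 in 10 of 42, 9 of them more positive on day 13, which is 23.8% beside 12.4% of all genes (7.53% more positive and 4.89% more negative). Frzb had the smallest adjusted p, with a difference of 0.91 ± 0.118 on the log2 scale (adjusted p = 8.33e-06): venlafaxine cultures were below controls on day 7 and above them on day 13. Sfrp2 was the 1 gene with a more negative effect on day 13 (-0.71 ± 0.147, adjusted p = 0.00201), with 47.6, 58.1 and 73.4 CPM in venlafaxine cultures and 48, 72.6 and 91.3 CPM in controls of that day. The ligand Wnt11 (0.77 ± 0.164, adjusted p = 0.00225), Daam2 (0.50 ± 0.123, adjusted p = 0.00667), and Dkk1 (0.97 ± 0.272, adjusted p = 0.0165) were more positive on day 13. So were the receptors Fzd2 (0.26 ± 0.0698), Fzd9 (0.34 ± 0.103) and Fzd5 (0.51 ± 0.174), with adjusted p = 0.0115, 0.0253 and 0.0454. By the same test 4 of 6 cell cycle genes, 2 of 6 oligodendrocyte lineage markers and 1 marker each of the pluripotency, neural progenitor, astrocyte, endodermal and floor plate lists were more positive, and 2 of 7 neuronal markers were more negative. Their part in the result was not tested.

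Sfrp5 and Wnt10b completed the 10 and were low. Sfrp5 had 0.542, 1.31 and 1.74 CPM in venlafaxine cultures and 1.34, 1.93 and 3.1 CPM in controls on day 7, and 1.79, 2.19 and 3.92 CPM with venlafaxine and 1.44, 1.93 and 2.99 CPM in controls on day 13 (1.07 ± 0.309, adjusted p = 0.0202). Wnt10b had medians of 0.609 CPM with venlafaxine and 0.863 CPM in controls on day 7, and of 0.459 and 0.222 CPM on day 13 (1.96 ± 0.484, adjusted p = 0.00725). The call of Fzd5 did not hold without the count filter, nor did that of Fzd9. DESeq2 gave Wnt10b no adjusted p, and over the other 4 alternatives its adjusted p was 0.00685 to 0.014.

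The fluoxetine effect differed between the days in 1 of 42 genes, which is 2.38% beside 0.277% of all genes (0.212% more positive and 0.0648% more negative). It was Daam2, below controls in mean on day 7 and above them on day 13 (0.64 ± 0.1225, adjusted p = 0.0221). The call did not hold without the count filter, without fluoxetine day 13 libraries 5, 6 and 7, or without the least typical library of each group (fluoxetine 2, venlafaxine 5 and control 5 on day 7, fluoxetine 5, venlafaxine 1 and control 4 on day 13). Frzb had a difference of 0.44 ± 0.118 (adjusted p = 0.0765, and 0.0455 to 0.443 over 6 alternatives), and Fzd5 of -0.08 ± 0.174 (adjusted p = 0.904).

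The median spread between libraries of 1 group was larger on later days, though not over the same genes. At least 1 CPM was reached by 30 genes on day 0 and by 37 or 38 in the later groups. The part of this difference in the rise was not tested. Over genes of at least 1 CPM the median coefficient of variation was 9.52% on day 0, 12.3% to 12.9% in the groups of day 7, and on day 13 it was 14.4% with fluoxetine, 15.8% with venlafaxine and 18.2% in controls. Wnt1, Rspo1, Fzd10 and Dkk2, singled out after their values were seen, were among the most variable genes of day 13. Each of the 4 was highest in fluoxetine library 4 of the fluoxetine group, in venlafaxine library 8 of the venlafaxine group and in control library 6 of the controls. Other variable genes of that day did not all share this. Rspo3, the most variable in controls with 50.7%, was highest in control library 6 and venlafaxine library 8 but in fluoxetine library 8. With fluoxetine, Dkk1 (42.7%), Wif1 (38.9%) and Lef1 (34.7%) varied more than Dkk2 (31.3%) and were highest in libraries 1, 8 and 5.

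Rspo1 had 4.17 CPM in fluoxetine library 4 and 0.278 to 0.968 CPM in the other 6 fluoxetine libraries, and a coefficient of variation of 127% in that group, 55.6% with venlafaxine and 42.1% in controls. Wnt1 had 5.38 CPM in that library and 0.605 to 2.67 CPM in the other fluoxetine libraries, against 1.51 to 5.59 CPM in controls. Fzd10 had 16.1 CPM there and 3.58 to 8.5 CPM in the others. The summed level of 4 roof plate markers, Lmx1a, Lmx1b, Msx1 and Gdf7, was also highest of its group in the same libraries, with 60.9 CPM in fluoxetine library 4, 68.5 CPM in venlafaxine library 8 and 68.2 CPM in control library 6, within group ranges of 42 to 60.9, 46.6 to 68.5 and 49.3 to 68.2 CPM. Their part in the result was not tested.

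**Figure D5:**
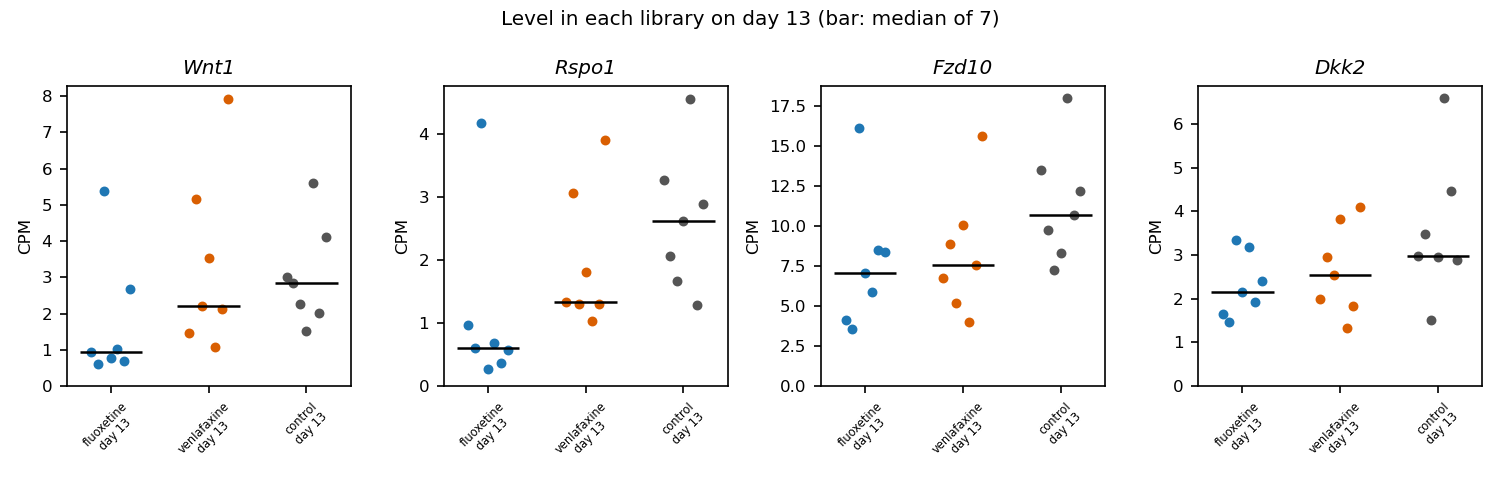
CPM of Wnt1, Rspo1, Fzd10 and Dkk2 in each library of day 13 (points, 7 per group, bar at the median), fluoxetine and venlafaxine left of controls. In each panel 1 fluoxetine library, number 4, tops its group, at 5.38 CPM for Wnt1 and 4.17 CPM for Rspo1.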

How the data were processed

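The authors deposited 1 table of raw counts by gene for 49 polyA libraries of a strand-specific TruSeq kit, per the labels. The submitters' processing notes name bcl2fastq, FastQC 0.11.5, STAR 2.6.0b, featureCounts 1.6.1 and build GRCm38.p6. No source used here gives the annotation release, the strand setting or how multi-mapping reads were handled. All 49 genes matched GENCODE vM21 by identifier, 44 at the same position, and exon lengths come from it.

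Counts were fitted with edgeR 4.0.16 in R 4.3.3 (filterByExpr by group, TMM, quasi-likelihood F test with robust fitting, Benjamini-Hochberg adjustment over all genes tested). Each day's 3 groups shared a fit, as did the 3 control groups. Differences between days came from a fit of the 42 libraries of both later days. CPM come from counts and TMM factors. A standard error is the log2 fold change over the square root of its F. The code was tested on simulated data.

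Alternatives were DESeq2 1.42.0, its size factors in edgeR, no count filter, the replicate number as a block, all 49 libraries in 1 fit, the 2 groups alone, and leaving out the library of each group with the lowest mean correlation with the others, or fluoxetine day 13 libraries 5, 6 and 7. Named are all called genes when at most 12, otherwise the 12 that changed most, given a mean of 1 CPM or more in 1 group, then Frzb, Fzd5 and Daam2 always. Of the other lists, up to 3 called genes of a list with the smallest p may be named. Genes, lists and tests were chosen with earlier results of these data known. 1 Wnt gene is not reported here.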

Additional observations from a re-analysis of the deposited data

Results flagged for a closer look

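The level of 31 genes was examined for a single outlying library in each group of 7, which makes 217 checks. In 16 of them the gap between the highest or lowest library and its neighbour exceeded the critical value of Dixon's test, and chance flags about 1 in 20. On day 13, Wnt1 had 5.38 CPM in fluoxetine library 4, against 2.67 CPM in the next library, and Fzd10 had 16.1 CPM in that library, against 8.5 CPM. Fluoxetine library 6 was lowest for Wnt7a with 34.4 CPM, and fluoxetine library 5 was highest for Fzd9 with 22.4 CPM.

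With venlafaxine on day 13, library 8 was highest for Fzd2 with 78.0 CPM and library 5 for Wnt7a with 40.6 CPM, while library 1 was highest for Fzd4 with 13.9 CPM and lowest for Fzd9 with 16.4 CPM. In controls of that day library 5 was lowest for Fzd2 with 51.8 CPM, library 1 highest for Wnt7b with 74.6 CPM and library 7 highest for Wif1 with 3.49 CPM. On day 7 Fzd1 was highest in fluoxetine library 5 with 24.0 CPM, Dkk1 in venlafaxine library 5 with 7.51 CPM, and in control library 5 Dkk3 stood at 10.6 CPM and Wnt5b at 8.03 CPM. On day 0 Wnt7a had 1.26 CPM in library 6, against 0.729 CPM in the next.

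A further 11 results differed between the days by a test of the difference of drug effects (log2 fold change against control on day 13 minus that on day 7). With fluoxetine this was Daam2 at 0.641. With venlafaxine the differences were 1.96 for Wnt10b, 1.07 for Sfrp5, 0.974 for Dkk1, 0.909 for Frzb, 0.775 for Wnt11, 0.511 for Fzd5, 0.504 for Daam2, 0.342 for Fzd9, 0.264 for Fzd2 and -0.712 for Sfrp2.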

How the results depend on the processing

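Over the results named by the rule above, 53 of 66 called results were called under every alternative that gave an adjusted p. Of the uncalled ones 10 of 14 stayed uncalled, and no called result turned its direction. The called results that were lost all came from comparisons with drug cultures, while those between days of the control cultures were kept throughout. Other genes given with a p, such as Axin2, Lef1 and Fzd3 on day 13 against day 7, are outside these totals. Among the uncalled ones 3 log2 differences near 0 changed sign between settings: Fzd5 with venlafaxine on day 13 (-0.02 to 0.04), Daam2 between the drugs on day 13 (-0.07 to 0.04) and the change of the fluoxetine effect on Fzd5 (-0.09 to 0.09). The number of these genes called moved as follows in the comparisons with drug cultures, with the cause not tested.

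The number of all genes called follows in parentheses. Venlafaxine on day 7 had 3 called genes (599), against 4 with DESeq2 (848) and 4 with all 49 libraries in 1 fit (550). Venlafaxine on day 13 had 9 (3753), against 7 without the count filter (2022) and 8 with the 2 groups alone (2301). It had 11 without the least typical library of each group (4075) and 13 with all 49 libraries (5164). The change of the venlafaxine effect between days had 10 (2107), against 8 without the count filter (1186). Fluoxetine on day 7 had 0 called genes (8), against 1 without the count filter (6), 2 with DESeq2 (52) and 1 with all 49 libraries in 1 fit (18). Fluoxetine on day 13 had 0 (19), against 3 with DESeq2 (421) and 2 with all 49 libraries (575). Fluoxetine against venlafaxine on day 7 had 1 (23), against 3 with DESeq2 (106), 0 with all 49 libraries (18) and 0 with the 2 groups alone (8). Fluoxetine against venlafaxine on day 13 had 2 (1986), against 3 with the 2 groups alone (2181), 4 with DESeq2 (2743) and 7 with all 49 libraries (3467). It had 1 without the least typical library of each group (236) and 0 without fluoxetine libraries 5, 6 and 7 (19). The change of the fluoxetine effect between days had 1 (47), against 4 with DESeq2 (160), and 0 without the count filter (4), without the least typical libraries (5) and without fluoxetine libraries 5, 6 and 7 (1).

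Same-numbered samples of 2 groups did not deviate together in all pairs (correlations of -0.464 to 0.242), so the numbers were not taken as pairing. On day 13 their median correlation was 0.115 between the drugs, against -0.00829 for samples of other numbers. It was -0.186 between fluoxetine and controls and -0.24 between venlafaxine and controls, against 0.0378 and 0.0313. What the numbers stand for was not tested. With the replicate number as a block venlafaxine on day 13 had 2 called genes (Fzd2 and Wnt11) in place of 9, and fluoxetine against venlafaxine on day 13 had 0 in place of 2, and the change of the venlafaxine effect had 9 in place of 10, without Fzd5, while all genes called with venlafaxine on day 13 numbered 282 in place of 3753. The median of all genes moved by at most 0.0785 on the log2 scale under any alternative, reached without the count filter. It moved by at most 0.0491 with DESeq2 and 0.0373 with its size factors in edgeR. Genes under 1 CPM, such as Wnt10b, rest on few counts, and 7 to 11 of the 49 genes were removed by the count filter, depending on the comparison.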
